A study of Mus musculus with 36 samples.

Results

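The 10 genes described here, Aars, Cars, Eprs, Gars, Iars, Nars, Sars, Tars, Wars and Yars, encode cytosolic aminoacyl-tRNA synthetases and were found by gene name among the 21442 genes of the count table, all 10 of them. RNA-seq read counts came from 36 mouse libraries in 12 groups of 3, formed by 6 stages and 2 genotypes, wild type (WT) and Zfp266 knockout (KO). The ZFP266 protein has zinc fingers and a KRAB domain. The libraries follow its loss in mouse embryonic fibroblasts (MEFs), in MEFs on the way to induced pluripotent stem cells (iPSCs), and in pluripotent cells. The comparison here is between KO cells on days of reprogramming and KO clones, each against WT.

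MEFs (strain 129 in the labels) came from chimeric E12.5 embryos made with the Cas9 TNG MKOS ESC line, which carries Cas9, a Nanog-GFP-Puro reporter and a doxycycline-inducible cassette of the 4 reprogramming factors with mOrange. Clone J of that line is also the parent of the ESC groups, so the transgenes are shared by WT and KO cells of every stage, although MEFs of a chimera can include host cells that lack them. WT MEFs received a lentivirus with a non-targeting guide RNA and KO MEFs one against Zfp266, and both were taken 96 hours later. Cells for day 3 (D3), day 5 (D5) and day 7 (D7) were transduced in the same way, but as a minority seeded among non-transgenic MEFs of strain 129. They were then cultured in ESC medium with 300 ng/ml doxycycline and 10 ug/ml vitamin C, while the MEF groups stayed in MEF medium. From D3 to D7 mOrange-positive cells were sorted, and no sorting is described for the MEF groups. Each KO library up to D7 is thus a population of edited cells and not a clone. iPSCs were single cells picked at day 15 and grown into clones without doxycycline and under puromycin, 3 WT and 3 KO clones. The 3 KO embryonic stem cell (ESC) libraries are 3 clones made with a BFP plasmid carrying the Zfp266 guide, whereas the 3 WT ESC libraries are 3 samples of 1 parental line, Clone J, so that a difference between KO and WT ESCs cannot be told apart from a difference between derived clones and their parent line.

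Total counts ranged from 19224103 to 39610939 per library, and the 10 genes together took 0.142% to 0.370% of them. Values below are normalised counts, that is, counts divided by the size factor of the library. Zfp266 mRNA was not lost in KO libraries, at 2191, 1969 and 2222 in KO ESCs against 2238, 2405 and 2445 in WT ESCs, and at 1954, 1892 and 2212 in KO iPSCs against 2529, 2817 and 2594 in WT iPSCs. Its mRNA was called lower in KO iPSCs (log2 fold change -0.39, DESeq2 FDR = 9.95e-06) and higher in KO D3 cells (0.32, FDR = 0.00883). It was not called at the other stages. A frameshift can leave the mRNA in place, so the mRNA level does not check the labels. The paper reports genotyping of the KO iPSC and ESC clones, and mostly out-of-frame insertions or deletions in the KO MEFs. The summed level of 8 pluripotency markers was 96570 to 123200 in the iPSC libraries and 114500 to 131400 in the ESC libraries, against 19.7 to 30.8 in MEFs, and that of 8 fibroblast markers was 396900 to 566000 in MEFs against 177 to 327 in the iPSC and ESC libraries.

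Aminoacyl-tRNA synthetases join each amino acid to its tRNA, the step that supplies the ribosome. They fall into 2 structural classes. Cars (cysteine), Iars (isoleucine), Wars (tryptophan) and Yars (tyrosine) belong to class I, and Aars (alanine), Gars (glycine), Nars (asparagine), Sars (serine) and Tars (threonine) to class II. Eprs fuses a glutamate enzyme of class I to a proline enzyme of class II, and with Iars it sits in the multi-synthetase complex. Gars also serves mitochondria, while most other mitochondrial synthetases have genes of their own. When charged tRNA is scarce, the kinase GCN2 phosphorylates eIF2, translation of the transcription factor ATF4 rises, and ATF4 acts on amino acid synthesis and transport genes and on many cytosolic synthetase genes through C/EBP-ATF response elements.

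The promoters of the members that carry this element are shown because the members moved together in the knockout clones. The motif searched was TGATGNAA on either strand, which reads TTNCATCA on the other, in windows from 250 bases before to 50 bases after the RefSeq start site in GRCm38.p6. Windows of 7 of the 10 genes were searched. Cars, Nars and Wars were left out of the search, so whether they carry the motif is not known. The motif was present in 5 of the 7 windows (71.4%), in 1304 of all 32851 windows (3.97%), in 8 of 34 windows of the amino acid response genes listed below (23.5%), and in 0 of 6 windows of other cytosolic synthetases, 0 of 15 of mitochondrial synthetases and 0 of 14 of endoplasmic reticulum (ER) chaperones. Eprs and Sars had no match. A match is a string of letters in a window and not a measured binding site. The members and lists were chosen with results of these data known, so these shares are a description. The response list had 34 windows for 30 genes, so some genes count more than once. The other lists were not searched in full, with 6 windows for 10 other cytosolic synthetases, 15 for 17 mitochondrial synthetases and 14 for 16 ER chaperones. Their counts of 0 therefore hold for the windows searched and not for every gene of the list. A part of the element in the changes was not tested. Below, each window is given 5′ to 3′ on the strand of the gene, from 250 bases before the start site and without its last 30 bases, with the motif in capitals. Aars lies at chr8:111033592-111033861 (plus strand), Gars at chr6:55037751-55038020 (plus), Iars at chr13:49681880-49682149 (plus), Tars at chr15:11399639-11399908 (minus) and Yars at chr4:129189653-129189922 (plus).
Aars: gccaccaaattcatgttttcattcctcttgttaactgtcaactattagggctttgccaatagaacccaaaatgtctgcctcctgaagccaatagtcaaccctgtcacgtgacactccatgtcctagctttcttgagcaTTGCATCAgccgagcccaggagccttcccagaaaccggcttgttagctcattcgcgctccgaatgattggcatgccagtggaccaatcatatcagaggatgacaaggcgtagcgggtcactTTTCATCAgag
Gars: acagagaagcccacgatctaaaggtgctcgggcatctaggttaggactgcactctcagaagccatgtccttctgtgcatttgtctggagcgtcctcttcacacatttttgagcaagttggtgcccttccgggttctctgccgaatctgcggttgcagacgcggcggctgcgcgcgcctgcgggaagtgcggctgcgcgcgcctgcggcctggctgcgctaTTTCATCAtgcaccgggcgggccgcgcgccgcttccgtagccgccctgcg
Iars: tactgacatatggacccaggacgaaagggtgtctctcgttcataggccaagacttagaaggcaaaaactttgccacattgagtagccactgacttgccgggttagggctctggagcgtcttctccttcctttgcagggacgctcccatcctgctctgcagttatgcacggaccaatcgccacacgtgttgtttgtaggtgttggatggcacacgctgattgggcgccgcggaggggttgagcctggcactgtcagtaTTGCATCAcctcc
Tars: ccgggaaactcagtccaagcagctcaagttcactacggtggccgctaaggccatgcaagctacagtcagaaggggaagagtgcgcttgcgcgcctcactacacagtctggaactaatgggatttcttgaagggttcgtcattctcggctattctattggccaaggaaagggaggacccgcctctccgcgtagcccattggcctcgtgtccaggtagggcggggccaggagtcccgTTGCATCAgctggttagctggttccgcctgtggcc
Yars: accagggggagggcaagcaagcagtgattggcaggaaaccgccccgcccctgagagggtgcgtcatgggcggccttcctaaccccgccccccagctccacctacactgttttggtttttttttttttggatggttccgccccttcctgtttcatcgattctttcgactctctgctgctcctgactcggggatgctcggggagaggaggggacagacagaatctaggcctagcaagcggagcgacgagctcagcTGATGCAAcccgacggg

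Aars held 2 matches, the first starting 112 bases before the start site and the second 9 bases after it. The match began 30 bases before the start site in Gars and 15 bases before it in Tars, and 7 bases after it in Iars and 3 bases after it in Yars. Yars was the only one of the 5 with the motif on its own strand, the other 4 holding it in reverse.

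In WT cells the synthetases were higher early in reprogramming than in MEFs, and several fell again by D7. D3 cells also differed from MEFs in medium, sorting and seeding among other MEFs, which cannot be told apart from reprogramming here. From MEFs to D3, 9 of 10 rose (DESeq2 FDR < 0.05), where 33.8% of all genes tested rose and 37.1% fell. Gars read 5104, 5334 and 5359 normalised counts in the 3 WT MEF libraries and 22783, 24979 and 23445 at D3. Every D3 library was thus well above every MEF library, and the log2 fold change was 2.17 (SE 0.09, DESeq2 FDR = 5.39e-139). Wars followed with a log2 fold change of 1.85 (SE 0.09), from 2395, 2258 and 2290.3 to 8186, 8338 and 8519.9. Iars, Tars, Eprs and Yars rose by 1.02 to 1.40 on the log2 scale, and Nars, Cars and Sars by 0.60 to 0.89. Aars, which charges alanine, did not pass, at 6658, 6725 and 7067 in MEFs against 5639.8, 6702 and 5928 at D3 (log2 fold change -0.16, SE 0.14, FDR = 0.296).

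Between D3 and D7 of WT reprogramming 6 of the 10 fell, Eprs, Gars, Iars, Tars, Wars and Yars, and 0 rose, beside 19.9% of all genes falling and 23% rising. Wars fell furthest, by 0.78 on the log2 scale (SE 0.09, DESeq2 FDR = 1.37e-16). Sars stayed level, at 7881, 9001 and 8877 on D3 and 8444, 8999 and 9028 on D7. In WT ESCs 8 of the 10 stood above WT MEFs and 0 below, where 40% of all genes were higher and 39.4% lower. The 2 others were Aars (log2 fold change 0.20, FDR = 0.17) and Wars (-0.19, FDR = 0.0562). WT ESCs and WT iPSCs differed in 1 member, Eprs, which was lower in ESCs by a log2 fold change of -0.26 (SE 0.06, DESeq2 FDR = 0.00273), beside 2.11% of all genes lower and 1.09% higher.

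Per kilobase of the principal transcript, Gars was the highest of the 10 in MEFs, where its range of mean ± SD overlapped that of Nars, and from D3 to D7. It reached 9973 ± 473 normalised counts per kilobase at WT D3 (SD, n = 3), against 4577 ± 91.7 for Wars, the next. In WT ESCs the order was led by Nars (2993 ± 40.0) and Gars (2778 ± 58.3) and closed by Wars (1114 ± 74.0) and Cars (871 ± 13.5). In the middle of that order the ranges of mean ± SD overlapped between Sars and Eprs, between Eprs and Iars, and between Yars and Aars. In KO ESCs Nars stood at 5543 ± 1106 per kilobase and the ranges of mean ± SD overlapped between every pair of neighbours from Nars down to Cars. The place of Eprs depends on the length used, because its merged exons span 18102 bases and its principal transcript 4906.

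**Figure D1:**
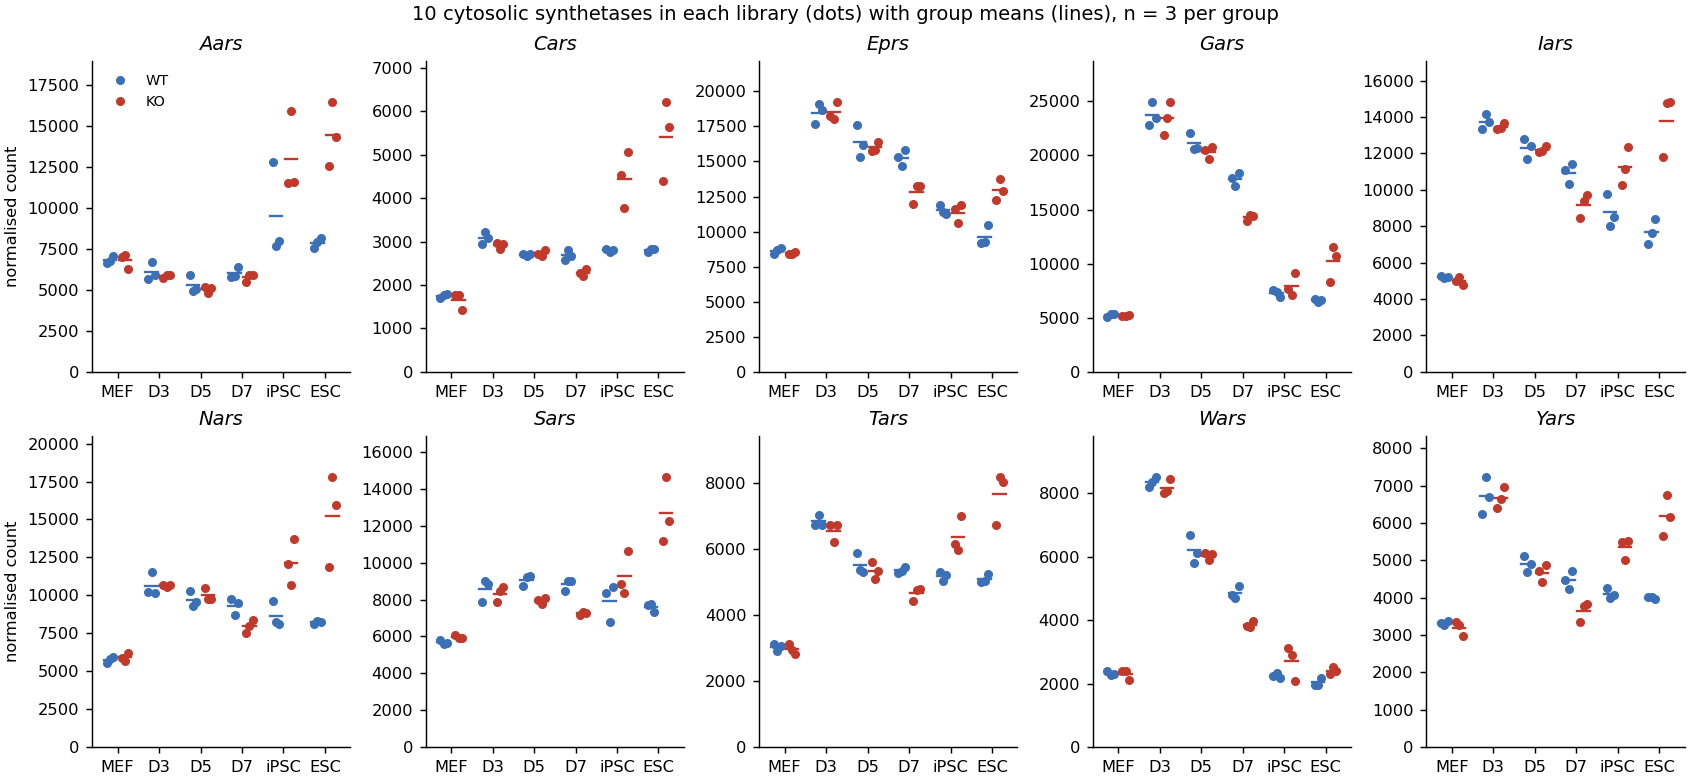
Normalised counts (vertical axis, from 0) of each of the 10 synthetase genes in all 36 libraries (dots), by stage and genotype (WT blue, KO red), with lines at the mean of 3 libraries. WT and KO dots overlap at D3 and, for all but Sars, in MEFs, KO lies lower at D7 for 9 of the genes, and in ESCs every KO dot lies above every WT dot for all 10.

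Loss of Zfp266 was not followed by a detected change of these genes in MEFs, at D3 or at D5. In the DESeq2 fit, 0 of the 10 were called higher or lower at any of these stages, and edgeR also called 0. The background was also low in MEFs and at D3, with 0.0285% of all genes higher and 0.0143% lower in KO MEFs, and 0.374% and 0.119% at D3. At D5 it was 4.72% higher and 2.43% lower. At an unadjusted DESeq2 p under 0.05 the counts were 0, 0 and 1 of the 10. Over all genes tested they were 1645 of 21020 in MEFs, 1020 of 16031 at D3 and 3213 of 17694 at D5. The 1 member at D5 is thus a smaller share than over all genes. The members' median log2 fold change was -0.02 in MEFs, -0.03 at D3 and -0.04 at D5. Sars was the 1 member under that unadjusted limit, at 8744, 9209 and 9308 in WT D5 libraries and 7963, 7738 and 8115 in KO ones. Those groups did not overlap, but the log2 fold change of -0.19 (SE 0.09) had a DESeq2 FDR of 0.20. A fit of the 2 D5 groups alone gave it an FDR of 0.00788.

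At D7 the synthetases were lower in KO cells. Eprs, Gars, Iars, Sars, Tars, Wars and Yars, 7 of the 10, were called lower and 0 higher (DESeq2 FDR < 0.05), beside 16.1% of all genes lower and 13.3% higher. The median log2 fold change of the 10 was -0.25, against -0.04 over all genes tested, and the folds ran from 0.793 to 0.961. WT and KO libraries did not overlap for 9 of the 10, the exception being Aars. The share of all genes without overlap was not counted at any stage, so such counts only describe the members.

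Among the class I enzymes, Wars read 4797, 4696 and 5085 in WT D7 cells and 3816, 3776 and 3963 in KO D7 cells. Its KO libraries all lay below the lowest WT library, and the log2 fold change of -0.34 (SE 0.09, DESeq2 FDR = 0.00149) was the most negative of the 10. Yars went from 4477, 4222 and 4724 to 3349, 3774 and 3833 (log2 fold change -0.29, SE 0.07, FDR = 0.000241). Iars, the isoleucine enzyme, was at 11090.2, 10313 and 11408 in WT and at 8429, 9373 and 9733 in KO cells. Its call (log2 fold change -0.25, FDR = 0.0128) was lost without WT replicate 3 (FDR = 0.0764) and without KO replicate 1 (FDR = 0.112). Cars, at 2568, 2813 and 2669.9 against 2285, 2202 and 2367, did not pass although its groups were apart (FDR = 0.0557).

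Among the class II enzymes, Gars had 17943, 17183 and 18366 normalised counts in WT and 13943, 14492 and 14439 in KO cells at D7. The gap between the groups was wider than the range within either, with a log2 fold change of -0.32 (SE 0.09, DESeq2 FDR = 0.00126). Sars was at 8444, 8999 and 9028 in WT and at 7182, 7307 and 7259 in KO cells (log2 fold change -0.28, SE 0.09, FDR = 0.00794). Tars went from 5265, 5314 and 5444 to 4413, 4742 and 4779, with a log2 fold change of -0.20 (SE 0.07). Its FDR of 0.0135 rose to 0.0622 with edgeR, to 0.059 without WT replicate 3 and to 0.0935 without KO replicate 1. Nars, at 9733, 8667 and 9504 against 7509.7, 7990.3 and 8371, missed the limit (FDR = 0.0818). Eprs, the fused enzyme, read 15282, 14695 and 15838 in WT and 11974, 13222 and 13237 in KO cells (log2 fold change -0.25, SE 0.06, FDR = 0.000175).

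Other genes moved with the synthetases at D7, where 13.3% of all genes tested were higher and 16.1% lower. The summed level of 8 pluripotency markers was 24470 to 32350 in KO and 5413 to 9342 in WT D7 libraries, 8 of 8 being called higher, and that of 8 fibroblast markers 12060 to 25490 against 37190 to 46250, with 3 of 8 lower. The summed level of the 5 trophoblast markers found was 2038 to 2531 in KO and 1329 to 1743 in WT D7 libraries, 2 of 5 being called higher. The part of this difference in cell state in the lower synthetase levels was not tested. In bulk RNA, fewer cells of a type and less RNA per cell cannot be told apart. For 6 members, Aars, Cars, Nars, Sars, Tars and Yars, the KO D7 mean lay below the means of both WT D7 cells and WT iPSCs. For Eprs, Gars, Iars and Wars it lay between them.

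In iPSC clones the direction was the opposite. Aars, Cars, Iars, Nars, Tars, Wars and Yars, 7 of the 10, were higher in KO clones and 0 lower (DESeq2 FDR < 0.05), beside 9.72% of all genes higher and 6.63% lower. The median log2 fold change of the 10 was 0.33, against 0.02 over all genes tested. WT and KO clones did not overlap for 5 members, Cars, Iars, Nars, Tars and Yars, with no share of all genes counted beside it. Fitting the 2 iPSC groups alone left 3 calls, Cars, Nars and Yars.

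Cars, the cysteine enzyme, read 2832, 2756 and 2811 normalised counts in WT iPSC clones and 4528, 3761 and 5062 in KO clones. The 3 WT clones were close together and every KO clone was well above them, with a log2 fold change of 0.67 (SE 0.10, DESeq2 FDR = 1.35e-09), the highest of the 10. Nars was at 9603, 8210.0 and 8077 in WT and at 12084, 10705 and 13691 in KO clones (log2 fold change 0.49, SE 0.10, FDR = 5.04e-05). Yars was at 4251, 3976 and 4056 against 5487, 5015 and 5528, a log2 fold change of 0.38 (SE 0.07, FDR = 2.41e-06). For Iars, KO clone 1 was barely above WT clone 1, with 9787, 8015 and 8506 in WT and 10296, 11159 and 12369 in KO clones (0.36, SE 0.08, FDR = 0.000459). Tars was at 5278, 5024 and 5201 against 6142, 5970.2 and 6984 (0.30, SE 0.07, FDR = 0.00025).

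The Aars call rested on particular clones. WT clone 1 had 12800.2 normalised counts, above the KO clones 1 and 3 with 11478 and 11564, while WT clones 2 and 3 had 7646 and 7988 and KO clone 2 had 15874. Its log2 fold change of 0.45 (SE 0.14, DESeq2 FDR = 0.011) lost the call without KO clone 2 (0.28, FDR = 0.161), without WT clone 2 (FDR = 0.144) and without WT clone 3 (FDR = 0.099). Wars was at 2225, 2344 and 2171 in WT and at 3128, 2914 and 2075 in KO clones, so KO clone 3 lay below all WT clones. Its log2 fold change of 0.27 (FDR = 0.0261) lost the call with edgeR (FDR = 0.0517), with a replicate block within D3, D5 and D7 (FDR = 0.0505) and without any of 4 single clones, the largest fall being without KO clone 1 (0.15, FDR = 0.335). Eprs (-0.02, FDR = 0.885), Gars (0.13, FDR = 0.325) and Sars (0.23, FDR = 0.0641) were not called.

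Clones were not alike in other ways. KO iPSC clone 1 had a summed level of 1655 for 6 primitive endoderm markers (Gata6, Gata4, Sox17, Sox7, Pdgfra and Dab2), against 170 and 188 in the other KO clones and 146 to 194 in the WT clones. Without that clone 6 synthetases were called higher, and the lost one was Wars. The summed level of 5 trophoblast markers was 2015 in WT clone 3 and 1766 in KO clone 3, against 525 to 892 in the other 4 clones. In the ESC libraries that sum was 1672 to 1834 in WT and 1437 to 1730 in KO. WT iPSC clone 1 had the highest level of the WT clones for 8 of the 10 members, and without it 7 were called. KO clone 3 had the highest level of the KO clones for 8 members, all but Aars and Wars, and its removal also left 7.

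The widest differences were in ESCs. All but Wars, 9 of the 10, were called higher in KO clones than in their parent line and 0 lower (DESeq2 FDR < 0.05), beside 5.82% of all genes higher and 4.29% lower. The median log2 fold change of the 10 was 0.68, against 0.00 over all genes tested. For all 10, every KO clone lay above every WT sample, again with no share of all genes counted beside it. The highest fold was 1.93, and with the added limit of a log2 fold change above 1 the count was 0 of 10 beside 0.741% of all genes. edgeR also called 9, and leaving out single libraries gave 9 to 10.

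Of the class I enzymes, Cars read 2756, 2838 and 2822 normalised counts in WT ESCs and 4389.6, 6221 and 5637 in the KO clones. It had the highest log2 fold change of the 10, 0.95 (SE 0.10, DESeq2 FDR = 1.74e-19), as it had in iPSCs. Iars was at 7006, 7634 and 8399 in WT and at 11789, 14753 and 14851 in KO clones (0.85, SE 0.08, FDR = 5.12e-20). Yars was at 4024, 4009 and 3973 against 5648, 6735 and 6164 (0.63, SE 0.07, FDR = 2.34e-16). Wars, the tryptophan enzyme, differed least, with 1960.1, 1949 and 2188 in WT and 2314, 2524 and 2388 in KO clones. Its log2 fold change of 0.24 (SE 0.09) had an FDR of 0.0687, and of 0.0394 without WT replicate 3.

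Of the class II enzymes, Nars had 8094, 8309 and 8245 normalised counts in WT ESCs and 11883, 17819 and 15947 in KO clones. The KO clones spanned a wider range than the gap to WT, and the log2 fold change was 0.89 (SE 0.10, DESeq2 FDR = 3.33e-15). Aars was at 7521, 7882 and 8133 in WT and at 12529.8, 16462 and 14323 in KO clones (0.88, SE 0.14, FDR = 7.83e-08). Sars was at 7709, 7759 and 7352 against 11184, 14679 and 12263 (0.74, SE 0.09, FDR = 1.54e-13). Gars, which also supplies mitochondria, was at 6749.9, 6472 and 6613 in WT and at 8339, 11577 and 10719 in KO clones (0.63, SE 0.09, FDR = 2.01e-10). Tars was at 5004, 5024 and 5240.1 against 6722, 8176 and 8019 (0.59, SE 0.07, FDR = 4.66e-15). Eprs, at 9202, 9246 and 10439 against 12281, 13767 and 12867, had the lowest called log2 fold change (0.43, SE 0.06, FDR = 3.28e-10).

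The KO ESC clones kept 1 order. Clone 1 was the lowest of the 3 for all 10 genes, clone 2 the highest for 9, and clone 3 the highest for Iars. Members are not independent in this, since the clones' counts of all genes come from the same libraries. The mean log2 difference of the 10 from the WT ESC mean was 0.48 in clone 1, 0.83 in clone 2 and 0.71 in clone 3, against -0.03, -0.01 and 0.04 in the WT samples.

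**Figure D2:**
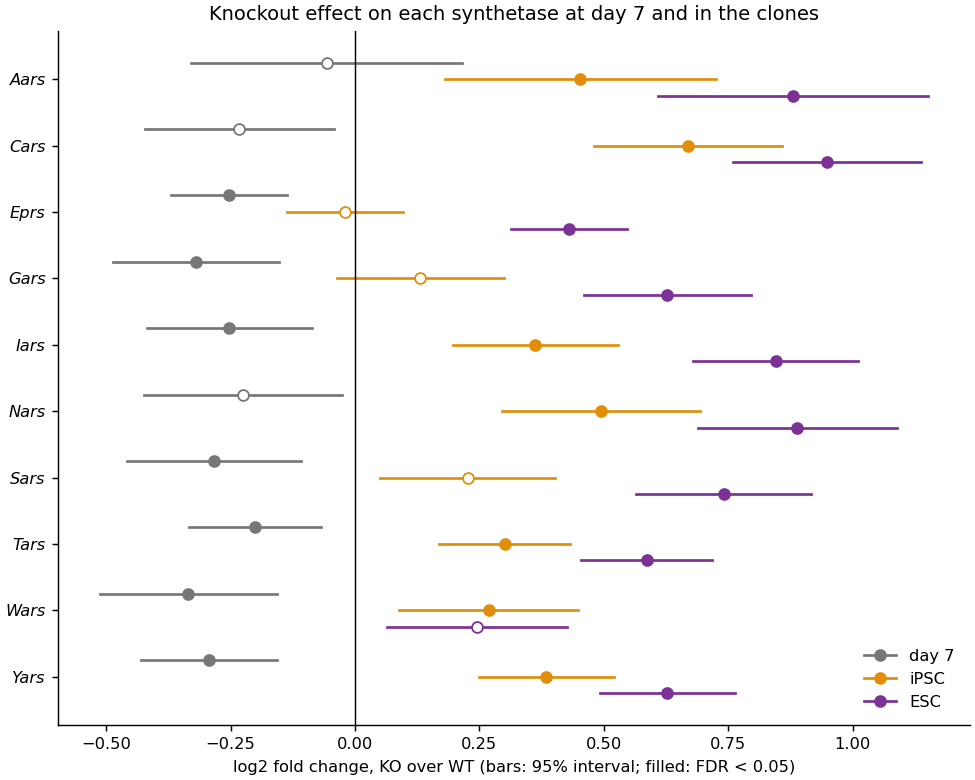
Log2 fold change of KO over WT for each of the 10 synthetases at D7 (grey), in iPSC clones (orange) and in ESCs (purple), with 95% intervals from the DESeq2 fit and filled points where FDR < 0.05. All 10 points lie left of 0 at D7 and all 10 lie right of 0 in ESCs, where Wars alone is open.

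The difference between the knockout effects at D7 and in the clones was tested in the same fit. Such a difference can pass while an effect alone is not called, so it does not test a change of sign. Aars, Cars and Nars were not called at D7, Wars not in ESCs, and Eprs, Gars and Sars not in iPSCs. All 10 members had a higher knockout effect in ESCs than at D7 (DESeq2 FDR < 0.05), beside 10.4% of all genes higher and 9.67% lower, with a median difference of 0.94 on the log2 scale against 0.02 over all genes tested. The difference was 1.18 for Cars (SE 0.14, FDR = 3.43e-15), 1.11 for Nars and 1.10 for Iars, and 0.58 for Wars (SE 0.13, FDR = 0.000159), the smallest. All 10 also had a higher effect in iPSCs than at D7, beside 12.1% of all genes higher and 9.76% lower, with a median of 0.56. That contrast shares the D7 libraries with the first. In it Aars (0.51, FDR = 0.0446) and Eprs (0.23, FDR = 0.029) were near the limit, and both lost the call with edgeR (FDR = 0.0786 and 0.129). Aars also lost it with a replicate block (FDR = 0.0526) and with a block within D3, D5 and D7 (FDR = 0.0685). Over all alternative fits, those without 1 library among them, Aars lost the call in 14 of 19 and Eprs in 10 of 19.

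The knockout effect was higher in ESCs than in iPSCs for 4 members, Eprs, Gars, Iars and Sars, beside 0.547% of all genes higher and 0.924% lower. Their differences were 0.45 (SE 0.08), 0.50 (SE 0.12), 0.48 (SE 0.12) and 0.51 (SE 0.13) on the log2 scale, with DESeq2 FDRs of 7.82e-05, 0.00851, 0.00961 and 0.00911. Eprs, Gars and Sars were the members not called in iPSCs. The count moved with the clones, to 7 without KO ESC clone 1, to 1 without KO ESC clone 2 and to 6 without KO iPSC clone 3, and to 1 when the 4 groups alone were fitted. For Wars the difference was -0.02, with a 95% interval from -0.28 to 0.23.

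The rest of the synthetase set did not move as the 10 did in count. Of the 10 other cytosolic synthetase genes (Dars, Farsa, Farsb, Hars, Kars, Lars, Mars1, Qars, Rars and Vars), 3 were higher in KO ESCs and 0 lower, beside 5.82% and 4.29% of all genes. The list median was a log2 fold change of 0.12. The 3 were Lars, the leucine enzyme, with 0.73 (DESeq2 FDR = 9.51e-17), Mars1, the methionine enzyme, with 0.65 (FDR = 3.16e-08), and Farsb, a subunit of the phenylalanine enzyme, with 0.33 (FDR = 4.69e-06). Lars was at 9052, 8872 and 8759 in WT ESCs and at 12576, 16458 and 15372 in KO clones, a pattern without overlap. Farsa, the other phenylalanine subunit, had the lowest value, -0.24 (FDR = 0.244), at 3099, 3016 and 2967 against 2819.6, 2424 and 2463. In iPSCs 3 of these 10 were higher (Dars, Lars and Mars1) and 2 lower (Hars and Rars), with a median of 0.01. The shares of all genes in iPSCs were 9.72% higher and 6.63% lower. At D7 2 of these 10 were lower (Hars and Lars), with a median of -0.06, beside 16.1% of all genes lower. The 10 members were picked with results of these data known, so this split between members and other synthetases is a description.

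Among the 17 mitochondrial synthetases 2 were higher and 1 lower in KO ESCs, with a median log2 fold change of 0.03. In iPSCs the counts were also 2 higher and 1 lower, and at D7 0 higher and 7 lower, with medians of 0.14 and -0.09. Of the 3 scaffold proteins of the multi-synthetase complex, 0 were called in ESCs, 1 was lower in iPSCs and 2 were lower at D7. Of 8 translation elongation factors 0 were higher at any of these stages, and 1, 4 and 2 were lower in ESCs, iPSCs and at D7. Over all genes tested, 5.82% were higher and 4.29% lower in KO ESCs, 9.72% and 6.63% in KO iPSCs, and 13.3% and 16.1% at D7.

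Genes of the amino acid response had the directions of the synthetases at each of these stages. The list held 30 genes of amino acid synthesis and transport and of ATF4 signalling, none of them a synthetase. In KO ESCs 25 of the 30 were higher and 0 lower, with a median log2 fold change of 0.91, in KO iPSCs 19 were higher and 0 lower (median 0.57), and at D7 1 was higher and 18 lower (median -0.52). The shares of all genes were 5.82% higher and 4.29% lower in KO ESCs, 9.72% and 6.63% in KO iPSCs, and 13.3% and 16.1% at D7. Chac1, a glutathione-degrading enzyme and ATF4 target, was at 82.3, 96.2 and 97.3 in WT ESCs and at 257, 616 and 441 in KO clones. That is a log2 fold change of 2.25 (SE 0.33, DESeq2 FDR = 4.93e-09), in which clone 1 was again the lowest and clone 2 the highest. Asns, asparagine synthetase, was at 3283, 3378 and 3314 in WT and at 4515, 7503 and 6647 in KO ESCs (0.90, SE 0.15, FDR = 1.6e-07). At D7 its log2 fold change was -0.0036 (SE 0.15, FDR = 0.993).

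Atf4 mRNA itself was at 3998, 3730.2 and 3618 in WT ESCs and at 4622, 7776 and 6359 in KO clones (log2 fold change 0.73, SE 0.15, DESeq2 FDR = 0.000196). It was higher in KO iPSCs too (0.44, FDR = 0.0305) and not called at D7 (-0.26, FDR = 0.218). The stress-induced genes Ddit3 and Trib3 were higher in KO ESCs (0.92 and 1.06) and in KO iPSCs (1.49 and 0.77) and lower in KO D7 cells (-0.96 and -0.72). Few of the ER chaperones, which respond to unfolded protein, were called in the clones. Of 16, 1 was higher and 2 lower in KO ESCs, with a median of 0.00, beside 5.82% and 4.29% of all genes. In KO iPSCs 2 were higher and 3 lower, beside 9.72% and 6.63% of all genes. Hspa5, the main ER chaperone, was lower in KO ESCs (-0.23, SE 0.06, FDR = 0.000983), at 9273, 9428 and 8667 in WT and 7922, 7169 and 8176 in KO clones. At D7 7 of the 16 were lower and 0 higher, beside 16.1% of all genes lower and 13.3% higher. Of 16 genes of the eIF2 pathway, 1 was higher and 0 lower in KO ESCs (median 0.04). In KO iPSCs 1 was higher and 4 lower (median -0.07), and at D7 also 1 and 4 (median -0.04).

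**Figure D3:**
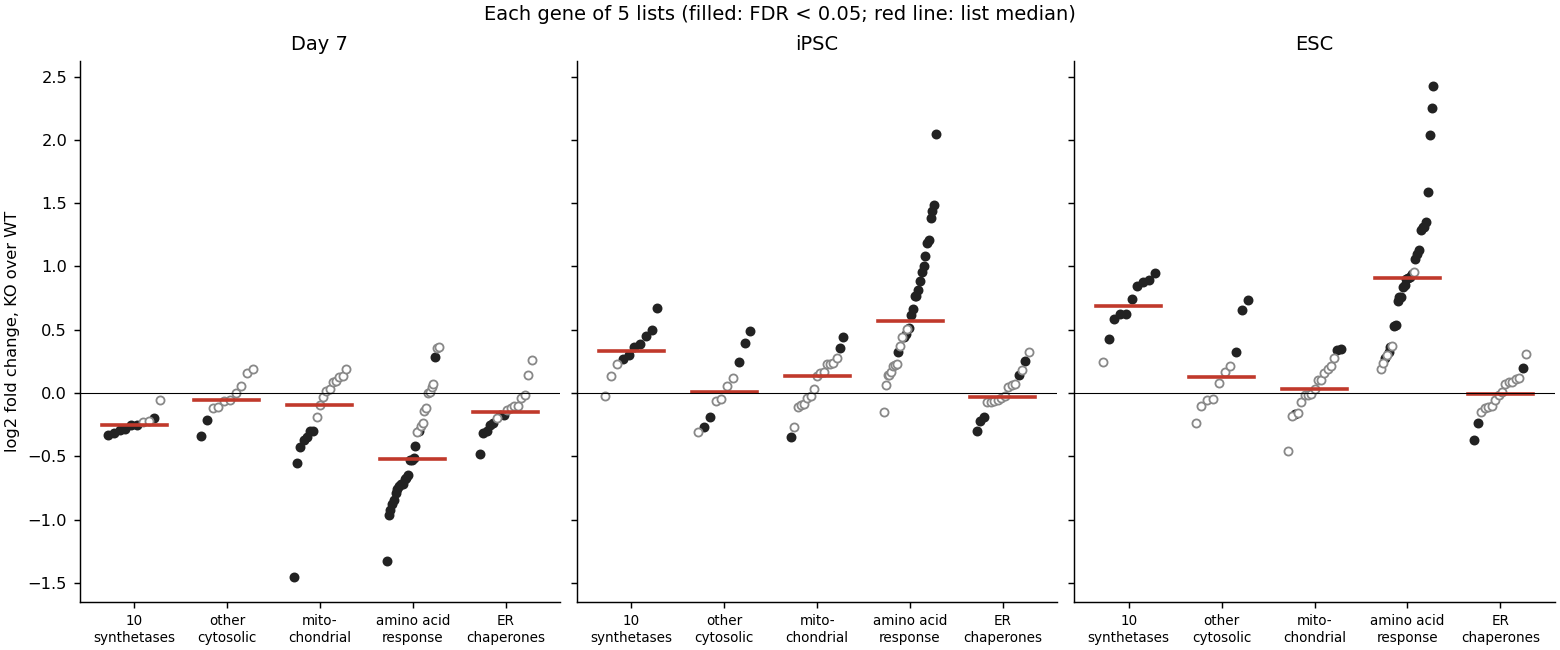
Log2 fold change of KO over WT for each gene of 5 lists (the 10 synthetases, other cytosolic synthetases, mitochondrial synthetases, amino acid response genes and ER chaperones) at D7, in iPSCs and in ESCs, with filled points at FDR < 0.05 and a red line at the list median. The medians of the 10 synthetases and of the amino acid response list lie below 0 at D7 and above 0 in both clone types, and those of the ER chaperones lie at 0.00 in ESCs and -0.03 in iPSCs.

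By library, the synthetases and the amino acid response genes were ordered alike among the KO ESC clones. The mean log2 difference of the amino acid response list from WT was 0.55, 1.22 and 0.98 in KO ESC clones 1, 2 and 3, beside 0.48, 0.83 and 0.71 for the 10 synthetases and 0.14, 0.20 and 0.18 for the other cytosolic synthetases. In KO iPSC clones 1, 2 and 3 the values were 0.69, 0.41 and 0.92 for the response list and 0.31, 0.27 and 0.39 for the synthetases, with clone 2 lowest and clone 3 highest in both. At D7 the 3 KO libraries were at -0.44, -0.46 and -0.39 and at -0.31, -0.23 and -0.20.

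**Figure D4:**
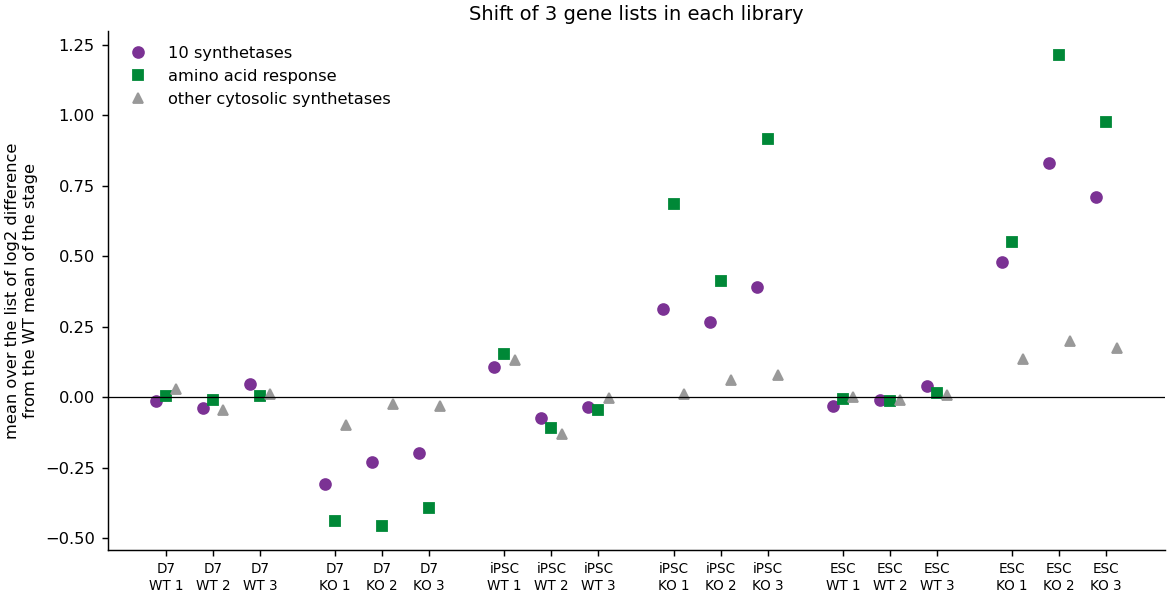
Mean over each of 3 lists of the log2 difference between a library and the WT mean of its stage, for the 18 libraries of D7, iPSCs and ESCs (10 synthetases as circles, amino acid response genes as squares, other cytosolic synthetases as triangles). The synthetases lie between -0.31 and -0.20 in the KO D7 libraries, between 0.27 and 0.39 in the KO iPSC clones and between 0.48 and 0.83 in the KO ESC clones.

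The gene whose pattern was most like that of the synthetases was Mthfd2, an enzyme of mitochondrial folate metabolism. Likeness was the Pearson r over the 36 libraries between a gene's deviation (log2 of normalised count plus 1, less the mean of the 6 libraries of the stage) and the mean deviation of the 10 members, for 14627 genes that passed a filter on low counts, and it is a description because libraries of a group share clones and depth. Mthfd2 had an r of 0.973, followed by Lars (0.957), Aldh18a1 (0.953), Mars1 (0.931), Psat1 (0.929), Slc6a9 (0.929), Slc7a1 (0.926), Nupr1 (0.913), Rhbdd1 (0.908) and Slc3a2 (0.897). Of these 10, 7 were on the amino acid response list, Lars and Mars1 were other cytosolic synthetases, and Rhbdd1, a rhomboid protease, was on no list. Only the stage mean was removed, so r includes the differences between KO and WT. The members and lists were chosen with results of these data known, so this count is a description too. Rhbdd1 had log2 fold changes of 0.82 in KO ESCs (DESeq2 FDR = 1.12e-07), 0.71 in KO iPSCs and -0.58 in KO D7 cells. Within the 10, Yars (0.968), Iars (0.967) and Tars (0.965) were closest to the mean of the other 9, and Wars (0.579) was the farthest.

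The genes lie on 10 different chromosomes of GRCm38, from Eprs on chromosome 1 (185363044-185428360, plus strand) to Nars on chromosome 18 (64499647-64516652, minus strand). Cars, with the highest fold in both clone types, is at 143557230-143600090 on the minus strand of chromosome 7, and Wars, with the lowest in ESCs, at 108860030-108894174 on the minus strand of chromosome 12. The exons of Aars share 1326 bases with Exosc6 on the same strand and 77 bases with Gm24103 on the opposite strand, those of Cars 211 bases with a pseudogene, Gm15580, on the opposite strand, and those of Yars 30 bases with C77080, also opposite. Reads in the bases that Aars shares with Exosc6 cannot be assigned by strand. Whether the counting used the strand is not stated, so some reads of Aars, Cars and Yars could also come from the neighbours on the opposite strand. The other 7 had no exon overlap in the annotation.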

How the data were processed

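The deposited counts were unnormalised reads per gene, which the authors made from stranded mRNA libraries (single reads of 75 bases) with FastQC, Cutadapt, STAR on GRCm38 and Rsubread. The annotation, strand setting and gene filter of the counting are not given in the sources used here. The deposited normalised signal table held the counts divided by 1 size factor per library, and was recomputed to within a relative difference of 4.98e-15. Gene names came from the authors' MEF table. The authors' fold changes, p-values and FDRs, and a log matrix they corrected for batches that the labels do not give, were not used, and 0 columns belonged to other samples.

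Groups and replicate numbers came from the sample titles. DESeq2 1.42.0 (R 4.3.3) fitted 1 factor of 12 groups to all 36 libraries, following the study, with the two-sided Wald test, no shrinkage and Benjamini-Hochberg adjustment over all genes, and genes with FDR < 0.05 were called. Fold changes are on the log2 scale with their SE, and differences between knockout effects are contrasts of the same fit. The code was run on counts simulated for 21442 genes, with changes put into the KO ESC libraries only. That simulation held no differences between stages, clones or pairs, so it does not test how the fit handles them. Alternatives were edgeR 4.0.16, TMM factors (trimmed mean of M-values), a minimum of 10 counts in 3 libraries, no independent filtering, the compared groups alone, a replicate block, a replicate block within D3, D5 and D7 (chosen after seeing the data), a log2 fold change limit of 1, and each library left out (36 fits). Deviations of same-numbered WT and KO libraries correlated above 0.1 in every pair at D3 (r from 0.101 to 0.456) and at D7 (0.172 to 0.392). At D5 r was 0.0897 to 0.268. On all 3 days each KO library correlated best with the WT library of its own number, so the numbers pair the samples there. In MEFs, iPSCs and ESCs this did not hold for every library. The main fit had no term for this pairing, which only the block fits include. Replicate pairs differed by 3.43 to 129 times the variance of counting alone, so none was counted as a duplicate. A gene with no read could have had up to 3 reads (95%), that is 2.31 to 5.22 normalised counts, covering counting error only.

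Levels per kilobase used the APPRIS principal transcript of GENCODE M21 (GRCm38), and promoters came from RefSeq (GRCm38.p6). The members and gene lists were chosen with earlier results of these data known. The genes named were the 10 members, Zfp266, Atf4, Asns, Ddit3, Trib3, Chac1, Hspa5, the other cytosolic synthetases with the highest and the lowest fold change in KO ESCs (Lars and Farsa), and the 10 non-members with the highest likeness. Other genes were named after their values were seen. No label ties the MEF, reprogramming and WT ESC replicates to separate cultures, so their p-values measure the spread between these samples.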

Additional observations from a re-analysis of the deposited data

Results flagged for a closer look

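The results given here are differences between 2 knockout effects of the same gene that passed the test of the difference itself (DESeq2 FDR < 0.05), as log2 values with the effect at the second stage subtracted. No cause was tested.

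For ESCs less D7, the difference was 0.94 for Aars, 1.18 for Cars, 0.68 for Eprs, 0.95 for Gars, 1.10 for Iars, 1.11 for Nars, 1.02 for Sars, 0.79 for Tars, 0.58 for Wars and 0.92 for Yars. Each of the 10 had a negative estimate of the knockout effect at D7 and a positive one in ESCs, though not every one of these effects was called.

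For iPSCs less D7, which shares the D7 libraries with the first contrast, the difference was 0.51 for Aars, 0.90 for Cars, 0.23 for Eprs, 0.45 for Gars, 0.62 for Iars, 0.72 for Nars, 0.51 for Sars, 0.50 for Tars, 0.60 for Wars and 0.68 for Yars. For Eprs both effects were negative, at -0.25 and -0.02.

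For ESCs less iPSCs, the difference was 0.45 for Eprs, 0.50 for Gars, 0.48 for Iars and 0.51 for Sars.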

How the results depend on the processing

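TMM factors, the low-count filter and unfiltered adjustment left each count of called synthetases within 1.5 times the value reported, as did edgeR, which gave 6 lower at D7 (against 7), 6 higher in iPSCs (against 7) and 9 higher in ESCs (as before). Fitting the compared groups alone gave 1 lower at D5, 3 higher in iPSCs, 1 for ESCs less iPSCs, 1 lower in WT ESCs against MEFs and 0 lower in WT ESCs against iPSCs. With a log2 fold change limit of 1, the count was 0 at D7, in iPSCs, in ESCs, for iPSCs less D7, for ESCs less iPSCs, for WT D7 against D3, for WT ESCs against MEFs and for WT ESCs against iPSCs, and 4 for ESCs less D7. The replicate block left 7 lower at D7, 7 higher in iPSCs, 9 higher in ESCs and 9 for iPSCs less D7 (against 10). A replicate block within D3, D5 and D7, chosen after seeing the data because 3 of 3 pairs correlated above 0.1 at D3 and at D7, left 7, 6, 9 and 9. In both fits the lost call for iPSCs less D7 was Aars, and in the second Wars lost its call in iPSCs. The blocks changed no other call of a member in the knockout comparisons. TMM factors moved the median of all genes by 0.111 for WT ESCs against MEFs and by less than 0.1 elsewhere.

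Leaving out 1 library gave 5 to 7 lower at D7, 6 to 7 higher in iPSCs, 9 to 10 higher in ESCs and 8 to 10 for iPSCs less D7. The count for ESCs less iPSCs ran from 1 (without ESC KO replicate 2) to 7 (without ESC KO replicate 1). WT ESCs against MEFs had 0 to 1 lower, the 1 being without ESC WT replicate 3, and WT ESCs against iPSCs 0 to 1 lower, with 0 without iPSC WT replicate 1 and without ESC WT replicates 1 or 2. Of the fold changes of single members, 1249 kept their direction and side of the threshold, 51 lost the call, 13 gained it and 37 changed sign. The 37 were not called. In MEFs they were 0.016 for Aars (TMM and edgeR) and 0.0070 with the groups alone, 0.0017 for Gars with TMM and 0.0019 with edgeR, and 0.011 for Wars with TMM, 0.010 with edgeR and 0.0014 with the groups alone. Over all alternative fits, those without 1 library among them, the ranges in MEFs were -0.037 to 0.050 for Aars, -0.13 to 0.0072 for Cars, -0.076 to 0.00085 for Tars and -0.043 to 0.049 for Wars. The ranges were -0.11 to 0.016 for Aars, -0.027 to 0.026 for Eprs, -0.066 to 0.028 for Gars, -0.030 to 0.060 for Nars and -0.062 to 0.047 for Yars at D3, and -0.12 to 0.014 for Aars, -0.0069 to 0.032 for Cars, -0.080 to 0.021 for Eprs, -0.045 to 0.016 for Iars, -0.079 to 0.0051 for Tars and -0.086 to 0.019 for Wars at D5, and -0.052 to 0.027 for Eprs in iPSCs, and -0.18 to 0.093 for Wars for the effect in ESCs less iPSCs.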
